A study of Mus musculus with 11 samples.

Results

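Apoe, the gene for apolipoprotein E, is 1 of the 754 genes on the Nanostring Myeloid Innate Immunity v2 panel that was used to count transcripts in sorted mouse peritoneal macrophages. It was selected by its own level in these samples, because it dropped further than almost any other gene when mice were given IL-4c, so the size of that drop is described here without a test. Peritoneal macrophages expressing CD11b and F4/80 came from 11 female mice aged 6 to 8 weeks, of the strain labelled C57BI/6, that received PBS or IL-4c intraperitoneally on day 0 and day 2, with sorting on day 4. IL-4c is IL-4 bound to an anti-IL-4 antibody, which prolongs the action of the cytokine. The PBS arm held mice 1 and 2, which were Rα+/+ (n = 2), and mice 3 and 4, which were RαTd/Td (n = 2). The IL-4c arm held mice 5, 6 and 7 of the Rα+/+ genotype (n = 3) and mice 9, 10, 11 and 12 of the RαTd/Td genotype (n = 4). A further Rα+/+ mouse given IL-4c had been excluded by the study and is not used here. In RαTd/Td mice a TdTomato reporter takes the place of Retnla, the gene for RELMα, in every tissue, because the allele was recombined through a constitutively active deleter Cre rather than in macrophages alone. Retnla was at the floor of 30 normalized counts in all 6 RαTd/Td mice. It measured 4631 and 4141 in the Rα+/+ genotype after PBS and 115675 to 171588 after IL-4c, exceeding RαTd/Td mice at least 77.9-fold and at least 4466-fold.

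Apolipoprotein E is a secreted protein that coats lipoprotein particles and hands them to lipoprotein receptors on cells. Macrophages are a source of it outside the liver, where it takes up cholesterol leaving the cell, and its transcription is known to respond to the sterol-sensing LXR nuclear receptors. IL-4 acts on macrophages through the IL-4 receptor and STAT6 and turns on the M2 genes, such as Retnla, Chil3, Chil4 and Arg1. Resident peritoneal macrophages fall into a large, self-renewing population marked by Gata6 and Timd4 and a small population with high MHC class II that derives from monocytes.

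In the GRCm38.p6 assembly the RefSeq annotation places Apoe on the minus strand at chr7:19696244-19701310, and the RefSeq promoter table lists 3 start sites. The 250 bases before the most upstream of these are at chr7:19699189-19699438, inside the span of the annotated gene. They are shown because they are the reference sequence before a listed start site of the gene whose level this report follows.
Apoe, 250 bases before the start, minus strand, 5′ to 3′: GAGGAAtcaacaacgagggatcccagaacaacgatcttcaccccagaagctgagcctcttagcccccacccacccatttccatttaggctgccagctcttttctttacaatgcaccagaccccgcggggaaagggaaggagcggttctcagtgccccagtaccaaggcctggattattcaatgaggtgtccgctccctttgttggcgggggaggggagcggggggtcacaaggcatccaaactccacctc
Capitals mark the core of the binding motif of PU.1, a macrophage transcription factor, which sits 250 to 245 bases before the start. That core, GAGGAA on either strand, is present in 23.3% of the 32851 windows of the same length in the promoter table. The window holds no match on either strand to the STAT6 half-sites TTC and GAA with any 4 bases between them (in 5.85% of windows), the same half-sites with any 3 bases between them (in 7.02%), the GC box (GGGCGG, in 32.7%) or the TATA box (TATAAA, in 12.4%). In the windows of the other 2 start sites, TATAAA is found before one, on both strands in overlapping positions between 100 and 91 bases from the start, and GAGGAA before the other, 132 to 127 bases from the start. A match or its lack describes these letters and does not show binding.

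After PBS, Apoe stood among the most abundant transcripts that the panel counted. It was at 38349 and 22003 normalized counts in Rα+/+ mice 1 and 2 and at 38543 and 40251 in RαTd/Td mice 3 and 4. Mouse 2 was the low one, and the other 3 mice lay within a narrow range. After IL-4c it was at 458, 525 and 625 normalized counts in Rα+/+ mice 5, 6 and 7, and at 583, 791, 2058 and 1646 in RαTd/Td mice 9, 10, 11 and 12. All 7 IL-4c-treated mice lay below all 4 PBS-treated mice, and the lowest PBS value was 35.2 times the highest IL-4c value in Rα+/+ mice and 18.7 times in RαTd/Td mice. Mice 11 and 12 were the high ones after IL-4c, and mouse 9 lay within the range of the Rα+/+ mice.

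**Figure D1:**
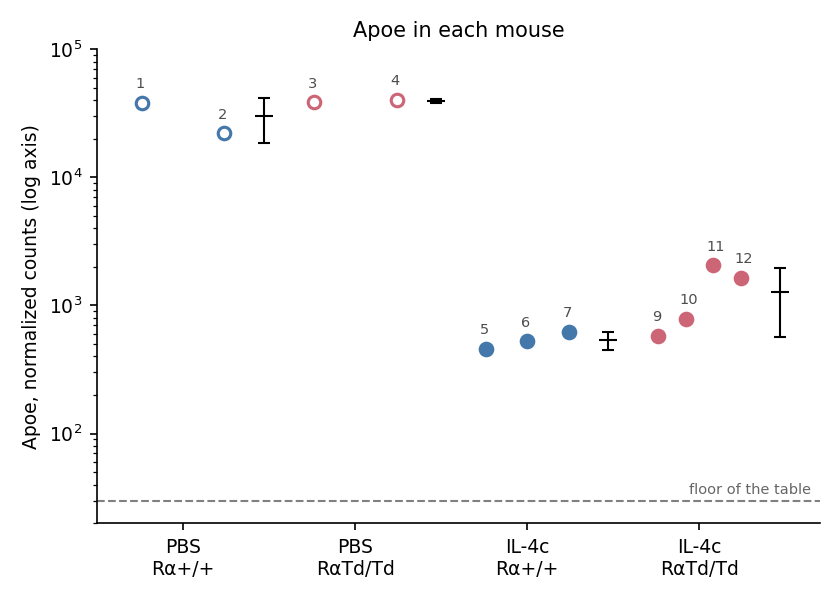
Apoe in normalized counts on a log axis (vertical) for each of the 11 mice by treatment and genotype (horizontal), with the mouse number beside each point, open points for PBS, filled points for IL-4c, and the group mean ± SD as a bar to the right. The PBS-treated mice sit between 22003 and 40251 and the IL-4c-treated mice between 458 and 2058, far above the floor of 30 drawn as a dashed line.

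The group means were 39397 ± 1208 normalized counts (SD, n = 2) in PBS-treated RαTd/Td mice, 30176 ± 11558 (SD, n = 2) in PBS-treated Rα+/+ mice, 1269 ± 698 (SD, n = 4) in IL-4c-treated RαTd/Td mice and 536 ± 84.2 (SD, n = 3) in IL-4c-treated Rα+/+ mice. In this order the step between the PBS and the IL-4c groups was far larger than the spread of the mice, while the genotypes within a treatment were neighbours that did not differ beyond it by the tests below. On the log2 scale, with 1 added to each value, the difference between IL-4c and PBS was -5.77 (SE 0.49, 95% interval -6.87 to -4.67) in Rα+/+ mice and -5.14 (SE 0.46, 95% interval -6.18 to -4.10) in RαTd/Td mice. As folds these are 54.5 (25.4 to 117) and 35.2 (17.1 to 72.5). No p-value is given for either, since Apoe was chosen for this contrast. In these bulk lysates, fewer cells that express a gene and less of its RNA per cell cannot be told apart.

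The depth behind the low values was ample. In each lane 1 factor between 0.75 and 1.88 had been applied to all genes, and dividing by it gave 400, 433 and 539 Apoe counts in mice 5, 6 and 7 and 612, 765, 1909 and 1434 in mice 9, 10, 11 and 12. The 4 PBS-treated mice had between 20626 and 29341 Apoe counts. The lowest value, that of mouse 5, had an exact Poisson 95% interval of 414 to 505 normalized counts, which covers counting error alone, and no negative control probe exceeded 13 counts in any lane. Apoe counts were at least 30.8 times the highest negative control of their own lane. The transcript was therefore measured, and not at the floor, in every mouse.

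By rank, Apoe held place 2 of 754 genes in each of the 4 PBS-treated mice, behind Fn1, the gene for fibronectin. After IL-4c it held places 111, 101 and 92 in Rα+/+ mice 5, 6 and 7 and places 99, 84, 49 and 55 in RαTd/Td mice 9, 10, 11 and 12. These are ranks of normalized counts, and since probes differ in capture they do not order the transcripts themselves. By group mean, the genes next to Apoe were Fn1 (57722 ± 10442) and the complement gene C1qc (14641 ± 846) in PBS-treated Rα+/+ mice, and Fn1 (60376 ± 2084) and the complement gene C4a (17582 ± 1549) in PBS-treated RαTd/Td mice. After IL-4c they were the interferon regulatory factor Irf5 (544 ± 26.1) and the immunoproteasome subunit Psmb8 (524 ± 15.8) in Rα+/+ mice, and the cyclooxygenase Ptgs1 (1314 ± 222) and the metalloprotease Adam8 (1214 ± 179) in RαTd/Td mice.

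As a share of the summed values of all genes above the floor, Apoe made up 8.02% and 5.32% in mice 1 and 2 and 7.67% and 7.64% in mice 3 and 4. After IL-4c its share was 0.0820%, 0.0856% and 0.0938% in Rα+/+ mice 5, 6 and 7 and 0.118%, 0.146%, 0.405% and 0.321% in RαTd/Td mice 9, 10, 11 and 12. No RαTd/Td mouse overlapped the Rα+/+ mice in this measure after IL-4c, whereas mouse 9 lay within their range in normalized counts. The share carries the total of the lane in its denominator, and Retnla, Chil3 and Chil4 together took 39.0% to 50.3% of that total in IL-4c-treated Rα+/+ mice and 14.99% to 27.6% in IL-4c-treated RαTd/Td mice, where Retnla is deleted. With these 3 genes left out, the share of Apoe was 0.134%, 0.158% and 0.189% in mice 5, 6 and 7 and 0.160%, 0.202%, 0.507% and 0.377% in mice 9, 10, 11 and 12, and the genotypes overlapped again.

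**Figure D2:**
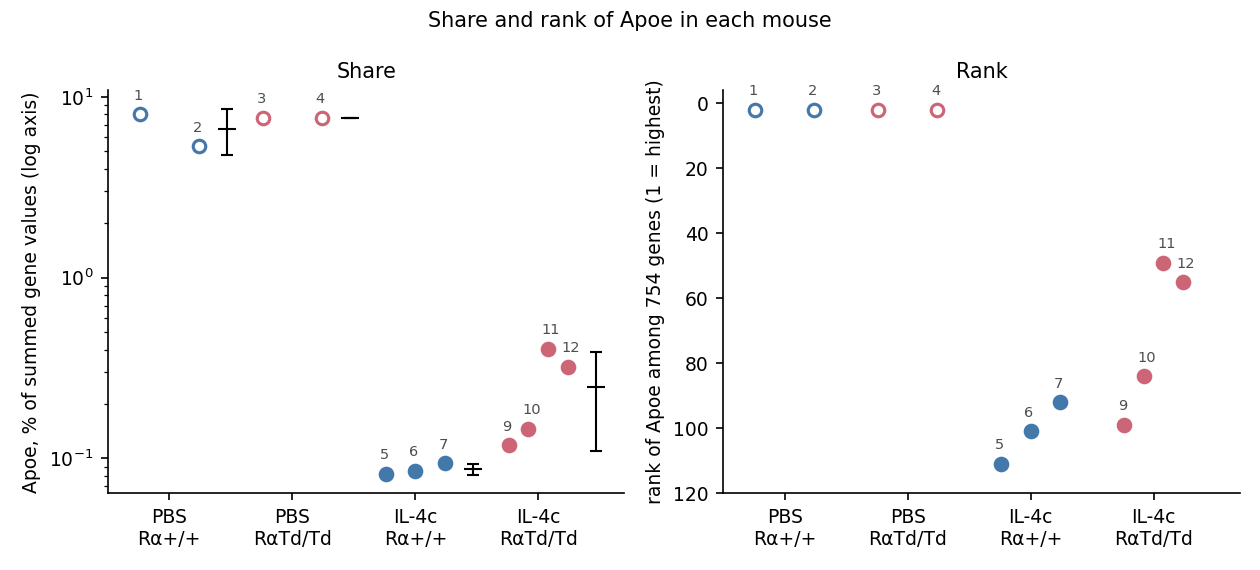
Left, Apoe as a percentage of the summed values of genes above the floor (log axis), and right, the rank of Apoe among 754 genes (1 at the top), for each mouse by treatment and genotype, with mouse numbers and, on the left, the group mean ± SD. Apoe holds rank 2 and 5.32% to 8.02% of the total in the PBS-treated mice, and ranks 49 to 111 with 0.0820% to 0.405% in the IL-4c-treated mice.

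The drop of Apoe was also set against the other genes of the panel. In normalized counts Apoe lost 29640 in Rα+/+ mice and 38128 in RαTd/Td mice, 16.7% and 18.5% of what all genes with a lower mean after IL-4c lost together (268 and 267 genes). In Rα+/+ mice Fn1 lost more, and in RαTd/Td mice no gene did. On the log2 scale, Apoe had the largest drop among the 309 tested genes that were above the floor in every Rα+/+ mouse, ahead of the scavenger receptor Marco (-3.45), the lipoprotein lipase gene Lpl (-3.38) and the scavenger receptor Stab1 (-2.84). The B cell chemokine Cxcl13 had a larger fitted drop there (-5.85), but it was at the floor in mice 5, 6 and 7, so that value depends on the floor and its fold is at least 50.8. In RαTd/Td mice Apoe had the largest drop of all 445 genes tested, ahead of the ERK phosphatase Dusp6 (-3.75), Cxcl13 (-2.81) and the G-CSF receptor Csf3r (-2.81) among the 315 genes above the floor in every mouse compared. The ratio of Apoe to Fn1 went from 0.437 to 0.683 in PBS-treated mice to 0.0221 to 0.0597 in IL-4c-treated mice.

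Whether RELMα deficiency went with a different level of Apoe was not part of the choice of the gene and was tested. After PBS, Apoe was 0.44 higher on the log2 scale in RαTd/Td mice (SE 0.54, 95% interval -0.76 to 1.64, adjusted p = 0.707 from limma), and both RαTd/Td mice lay above both Rα+/+ mice by a margin that in 1 case, 38543 against 38349, was small. After IL-4c it was 1.07 higher in RαTd/Td mice (SE 0.41, 95% interval 0.15 to 1.99), which had an unadjusted p of 0.0271 and an adjusted p of 0.180 from limma over 445 genes, and was not called. The difference between the genotypes in their response to IL-4c was 0.63 (SE 0.67, 95% interval -0.88 to 2.15, adjusted p = 0.695 from limma). That interval holds no difference, and runs from a drop about 1.85-fold larger to a drop about 4.43-fold smaller in RαTd/Td mice. Of all genes tested, 9.66% were called between the genotypes after PBS, 2.7% after IL-4c and 2.02% in their response.

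An exact permutation test of Apoe alone gave a two-sided p of 0.333 after PBS, the smallest that 6 arrangements of 2 against 2 mice allow, and 0.143 after IL-4c, where 35 arrangements of 3 against 4 mice allow 0.0286. Over both treatments, with genotype permuted within each, Apoe was 0.75 higher on the log2 scale in RαTd/Td mice (exact permutation test, two-sided p = 0.0524 over 210 arrangements, of which the smallest possible is 0.00476). This value lay close to the threshold and crossed it with some settings. It was p = 0.0190 without mouse 1, p = 0.0444 without mouse 7, p = 0.0167 without mouse 9 and p = 0.05 without mouse 10, 11 or 12 in the same exact permutation test, and up to 0.0952 without another mouse. With the other scalings tried in that test, p ran from 0.0238 to 0.124. The difference after IL-4c was 1.38 without mouse 9 (adjusted p = 0.0582 from limma) and 0.78 without mouse 11 (adjusted p = 0.329), and it was not called with any single mouse left out. After PBS it was 0.84 without mouse 1 and 0.04 without mouse 2.

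The level of Apoe in 1 mouse relative to another depends on how lanes are scaled, so it was also set against each housekeeping gene and other scales. Per unit of the translation elongation factor gene Eef1g, Apoe was between 32.7 and 67.4 after PBS and between 0.672 and 3.48 after IL-4c. Per unit of the ribosomal protein gene Rpl19, it was between 4.89 and 7.42 after PBS and between 0.0936 and 0.413 after IL-4c. Neither ratio overlapped between the treatments. With each of the 4 housekeeping genes as the sole scale, the difference between IL-4c and PBS lay between -5.85 and -5.66 in Rα+/+ mice and between -5.36 and -4.89 in RαTd/Td mice.

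Scaling to the positive control probes, which read synthetic RNA spiked into each lane, gave the smallest drop. Their geometric mean ran from 853 to 1021 counts after PBS and from 301 to 623 after IL-4c, so it moved with treatment. Among the IL-4c-treated mice it also separated the genotypes. No Rα+/+ mouse exceeded 441 counts there, and every RαTd/Td mouse had at least 507. The genotypes overlapped in this measure after PBS. Scaled to these probes, Apoe differed between IL-4c and PBS by -4.49 in Rα+/+ mice and by -3.63 in RαTd/Td mice on the log2 scale, and the genotype difference was -0.23 after PBS, opposite in sign to that with the housekeeping genes, and 0.64 after IL-4c. Centring on the median gene and quantile normalization gave genotype differences after PBS of 0.29 and 0.00. The part that the lanes' capture has in the differences between groups was not tested.

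**Figure D3:**
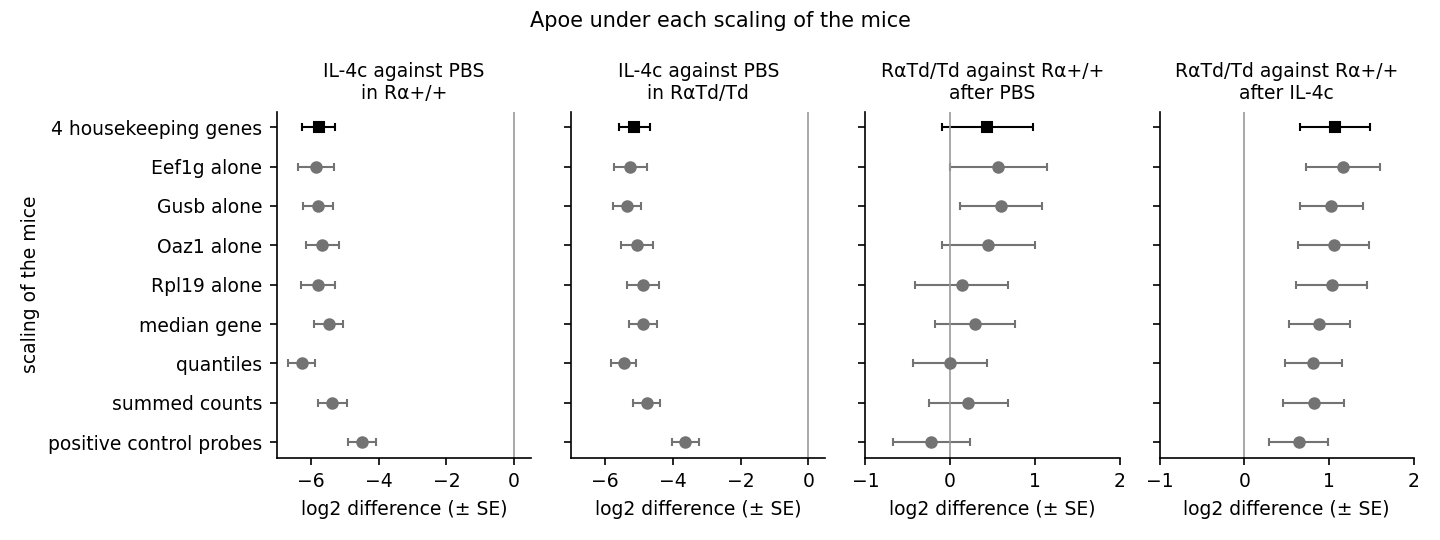
Log2 difference of Apoe (horizontal, ± SE) for IL-4c against PBS in each genotype and for RαTd/Td against Rα+/+ after each treatment, with each scaling of the mice on its own line and the scaling by 4 housekeeping genes as a black square. The drop after IL-4c lies between -6.27 and -3.63 throughout, whereas the genotype difference after PBS runs from -0.23 to 0.60.

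The labelled cell type was checked against its markers. Itgam and Adgre1, which encode CD11b and F4/80, were at 7780 to 11245 and 5897 to 10617 normalized counts, and Gata6, the transcription factor of large peritoneal macrophages, was at 503 to 712 in all 11 mice, with log2 differences of 0.00 and -0.06 after IL-4c. Of 16 markers of large peritoneal macrophages 8 are on the panel, all of them above the floor, and their summed level was 85654 to 102489 after PBS, 46249 to 47813 in IL-4c-treated Rα+/+ mice and 53581 to 68436 in IL-4c-treated RαTd/Td mice. Fn1 was the largest single part of that sum, from 50339 to 65106 after PBS and from 18494 to 34472 after IL-4c, and Timd4, a phosphatidylserine receptor of these cells, was lower after IL-4c in both genotypes (log2 difference -1.48 and -1.61, adjusted p = 0.000174 and 8.8e-05 from limma).

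The summed level of small peritoneal macrophage markers differed between the genotypes after PBS and overlapped between them after IL-4c. Of 14 such genes 8 are on the panel and 7 were above the floor, with a summed level of 7716 and 9465 in PBS-treated Rα+/+ mice, 24534 and 32822 in PBS-treated RαTd/Td mice, 4534 to 7941 in IL-4c-treated Rα+/+ mice and 7345 to 19447 in IL-4c-treated RαTd/Td mice. The MHC class II genes and Cd74 carried most of it. Of these, H2-Aa (log2 difference 1.97 after PBS and 1.31 after IL-4c) and H2-Ab1 (1.94 and 1.36) were called higher in RαTd/Td mice after both. After IL-4c neither overlapped between the genotypes (adjusted p = 0.0474 and 0.0421 from limma). Cd74 was called after PBS (1.73) and not after IL-4c (1.08), and H2-Eb1 after neither (1.58 and 1.22). Over all genes tested, 9.66% were called after PBS and 2.7% after IL-4c. Ccr2, Mrc1 and Irf4 were not called between the genotypes after either treatment. Their log2 differences were 0.03, -0.49 and 0.52 after PBS and 0.92, 0.95 and -0.14 after IL-4c. Mouse 9, the RαTd/Td mouse with the least Apoe after IL-4c, was also lowest of its group in the summed level. Mouse 11, however, had more Apoe than mouse 12 and a lower summed level (13550 against 19447). The part of these cells in the level of Apoe was not tested.

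Markers of other cells were low. The B cell marker Ms4a1 was at 105 to 242 normalized counts after PBS, at the floor in 6 of 7 IL-4c-treated mice and at 63.1 in mouse 12, and Fcer2a was at the floor throughout. Both T cell markers on the panel, 6 of 7 eosinophil markers, 4 of 5 dendritic cell markers and 5 of 6 mast cell markers were at the floor in every mouse. Of 9 neutrophil and monocyte markers 6 were at the floor in every mouse, among them Ly6g, Mpo and Elane, and the sum of the others was 334 to 630 after PBS and 0 to 151 after IL-4c. Csf3r made up the larger part of it wherever it was above 0, and S100a8, at the floor in 6 of 11 mice, reached 82.5 at most. The part of these cells in the level of Apoe was not tested.

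The genes with the pattern most like that of Apoe were found by profile distance, the root mean square over the 11 mice of the difference between a gene and Apoe in log2 values after each was centred on its own mean. The nearest was Dusp6, which inactivates ERK, at a distance of 0.749, then Cxcl13 (0.927), the β-glucan receptor Clec7a (1.23), Csf3r (1.28), the inflammasome sensor Nlrp3 (1.29) and Lpl (1.38), against a median of 2.57 over 444 genes. Of these 6, Lpl alone was above the floor in all 11 mice, so the low end of the others is a limit. The distance also favours genes with a drop as large as that of Apoe.

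Dusp6 measured 1134 and 694 in mice 1 and 2, 873 and 1200 in mice 3 and 4, at the floor in mice 5, 6 and 7, and at 85.7, 34.1, 80.8 and 134 in mice 9, 10, 11 and 12. Like Apoe, it was lowest among the PBS-treated mice in mouse 2. Cxcl13 measured 2151 and 1486 in mice 1 and 2, 1202 and 1489 in mice 3 and 4, at the floor in mice 5, 6 and 7, and at 87.6, 92.0, 484 and 327 in mice 9, 10, 11 and 12. Its 2 high mice after IL-4c were those of Apoe, mice 11 and 12. Between the genotypes after IL-4c, Cxcl13 was at least 5.37-fold higher in RαTd/Td mice (adjusted p = 0.0421 from limma). That call was lost without any one mouse other than 9 or 10 (log2 difference 2.17 to 2.62, adjusted p up to 0.193), and with 1 floor for all mice the difference was 1.73 (adjusted p = 0.184). Apoe, whose difference was smaller, was not called. Cxcl13 was picked for likeness to Apoe over the same 11 mice of both genotypes, so its p-value is not independent of that choice.

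Lpl, which frees fatty acids from lipoprotein triglyceride, measured 1216 and 799 in mice 1 and 2, 832 and 843 in mice 3 and 4, 90.4, 201 and 45.2 in mice 5, 6 and 7, and 42.8, 118, 195 and 425 in mice 9, 10, 11 and 12. Its groups did not overlap between treatments, but within the IL-4c-treated mice the genotypes did. The difference between IL-4c and PBS was -3.38 (SE 0.85) in Rα+/+ mice and -2.54 (SE 0.81) in RαTd/Td mice. Its p-values are left out, since Lpl was picked here for likeness to a profile that this drop dominates. As a member of the fatty acid list below, Lpl was called lower in both genotypes. The call in Rα+/+ mice was lost without mouse 1 (-3.08). The call in RαTd/Td mice was lost without mouse 1, 2, 3, 4 or 10 (-2.55 to -2.44).

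**Figure D4:**
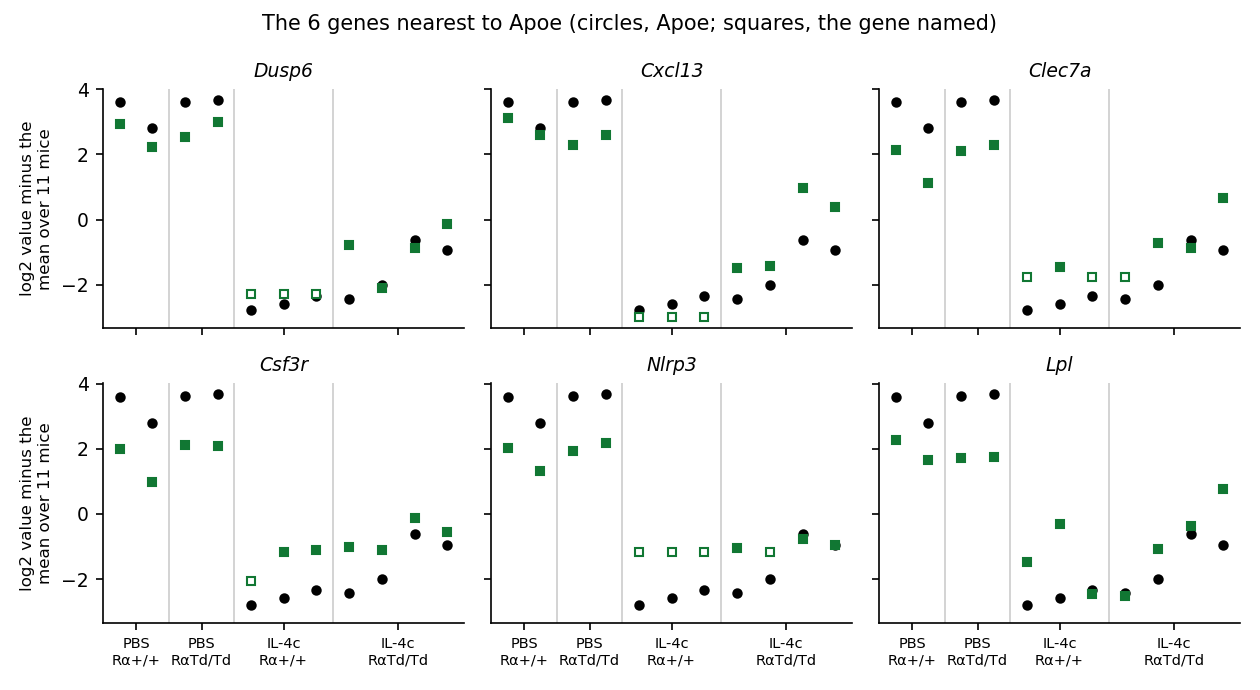
Log2 value minus its own mean over the 11 mice (vertical) for Apoe (black circles) and, in each panel, 1 of the 6 genes nearest to it (green squares, open where the gene was at the floor), with the mice of each group side by side (horizontal). Apoe and all 6 genes are high in the 4 PBS-treated mice and low after IL-4c, with mice 11 and 12, the last pair on the right, the highest for Apoe among the IL-4c-treated mice.

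To place Apoe among genes of related function, lists of lipid-handling genes were used. None of 16 other apolipoproteins and lipoprotein carriers is on the panel. Of 109 lipid-handling genes in all, 30 are on the panel besides Apoe and 25 were tested. After IL-4c 0 rose and 11 fell in Rα+/+ mice, against 13.9% and 32.4% of all genes tested, and 3 rose and 11 fell in RαTd/Td mice, against 15.3% and 36.6%. At an unadjusted p under 0.05 by limma, 0 higher and 13 lower of the 25 would pass in Rα+/+ mice. Over all 445 genes these counts were 73 and 166. In RαTd/Td mice 3 higher and 11 lower of the 25 would pass, beside 75 and 183 of all 445. The median log2 difference of the 25 genes was -0.36 and -0.29, beside -0.18 and -0.23 over all genes tested, against -5.77 and -5.14 for Apoe.

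Among receptors that bind apolipoprotein E, Trem2, a lipid-sensing receptor, was at 306 ± 10.2 normalized counts after PBS and 85.4 ± 44.4 after IL-4c in Rα+/+ mice (-1.95, SE 0.60, adjusted p = 0.0233 from limma), a call lost without mouse 1, 2, 6 or 7 (-1.98 to -1.68). In RαTd/Td mice Trem2 was at 118 and 146 after PBS and at 88.5, 90.9, 76.5 and 342 after IL-4c in mice 9, 10, 11 and 12 (-0.12, adjusted p = 0.894 from limma), so that mouse 12 alone lay above the PBS-treated mice and the other 3 lay below them. Its signalling adaptor Tyrobp was called lower in Rα+/+ and RαTd/Td mice (-0.61 and -0.48). After centring on the median gene its differences were -0.31 and -0.23, called in neither. The call in RαTd/Td mice was also lost without mouse 4 (-0.45).

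Of the 8 tested genes in a list of modified-lipoprotein and other scavenger receptors, 4 fell in Rα+/+ mice, beside 32.4% of all genes. In RαTd/Td mice 2 fell and 2 rose, beside 36.6% and 15.3%. Marco measured 2766 and 3097 in mice 1 and 2, 1687 and 1326 in mice 3 and 4, 211, 267 and 341 in mice 5, 6 and 7, and 463, 641, 2398 and 3111 in mice 9, 10, 11 and 12. Mice 11 and 12 were again the high ones, and there Marco lay above the PBS-treated RαTd/Td mice, where Apoe lay far below them. Its fall was called in Rα+/+ mice (-3.45, SE 0.73, adjusted p = 0.00382 from limma) and not in RαTd/Td mice (-0.29, SE 0.69), and the difference in response was not called for any of the 25 genes. Cd36, a receptor for oxidized lipoproteins, fell in both genotypes (-1.90 and -1.89), in Rα+/+ mice not without mouse 1 (-1.44). Stab1 fell in Rα+/+ mice (-2.84), and Cd68 (0.83) and the mannose receptor Mrc1 (1.69) rose in RαTd/Td mice, Mrc1 not without mouse 3, 4 or 10 (1.62 to 1.75). Cxcl16, a transmembrane chemokine that binds oxidized lipids, was called lower in both (-1.51 and -1.18), in Rα+/+ mice not without mouse 1 (-1.06) or 7 (-1.44), and in RαTd/Td mice not without mouse 3, 4, 5, 7, 9 or 10 (-1.24 to -0.92). Cxcl16 was at the floor in 2 of the 3 IL-4c-treated Rα+/+ mice, and with 1 floor for all mice the difference there was -0.76 and not called (adjusted p = 0.187 from limma).

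Of 21 genes of cholesterol efflux and LXR signalling only 5 are on the panel, all of them tested. The cholesterol transporters Abca1 and Abcg1 are not among them, so efflux itself is hardly covered. None of the 5 rose, beside 13.9% of all genes in Rα+/+ and 15.3% in RαTd/Td mice. In each genotype 2 fell, beside 32.4% and 36.6%. They were the efferocytosis receptor Mertk (-1.08 in Rα+/+ and -0.93 in RαTd/Td mice) and the orphan nuclear receptor Nr4a1 (-1.23 and -1.87, the first not without mouse 1, at -1.22). Nr1h3, which encodes LXRα, was at the floor in 9 of 11 mice and no higher than 48.1 normalized counts, and Lipa, the lysosomal lipase, was between 765 and 1053 in all mice and not called. Mertk was also the 1 lipid-handling gene called between the genotypes after IL-4c. It measured 212, 198 and 276 normalized counts in mice 5, 6 and 7 and 331, 353, 442 and 442 in mice 9, 10, 11 and 12, without overlap (log2 difference 0.78, SE 0.16, adjusted p = 0.0421 from limma). The call was lost without mouse 1, 2, 3, 4, 5, 6, 10, 11 or 12 (0.68 to 0.83, adjusted p up to 0.193).

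Of 9 tested genes of fatty acid and eicosanoid metabolism, 3 fell in Rα+/+ mice, beside 32.4% of all genes. In RαTd/Td mice 6 fell and 1 rose, beside 36.6% and 15.3%. Alox5ap, the partner of 5-lipoxygenase, fell in both (-0.94 and -0.67), and Alox15, the lipoxygenase of large peritoneal macrophages, fell in both (-0.99 and -1.02). The Alox15 calls were lost without mouse 1, 2, 5 or 6 in Rα+/+ mice (-1.13 to -0.85) and without mouse 3 or 4 in RαTd/Td mice (-1.03 to -1.02). In RαTd/Td mice the fatty acid carrier Fabp4 (-1.04), the sterol regulator Insig1 (-0.57) and the cyclooxygenase Ptgs1 (-0.51) fell and the leukotriene hydrolase Lta4h (0.49) rose. Of these, Fabp4 was not called without mouse 3, 4, 9, 10 or 12 (-1.08 to -0.91), Insig1 without mouse 4 (-0.50) or Ptgs1 without mouse 3 (-0.59) or 4 (-0.43). After centring on the median gene Fabp4 (-0.78), Insig1 (-0.31), Ptgs1 (-0.25) and Alox15 (-0.69 in Rα+/+ and -0.77 in RαTd/Td mice) were not called. Between the genotypes after PBS 0 of the 25 genes were called by limma, beside 9.66% of all genes, and 4 had an unadjusted p under 0.05, beside 102 of all 445 genes. After IL-4c 1 was called, beside 2.7%, and 9 had an unadjusted p under 0.05, of which 7 were higher and 2 lower in RαTd/Td mice, beside 97 of 445. For the response 0 were called, beside 2.02%, and 4 had an unadjusted p under 0.05, beside 69 of 445.

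**Figure D5:**
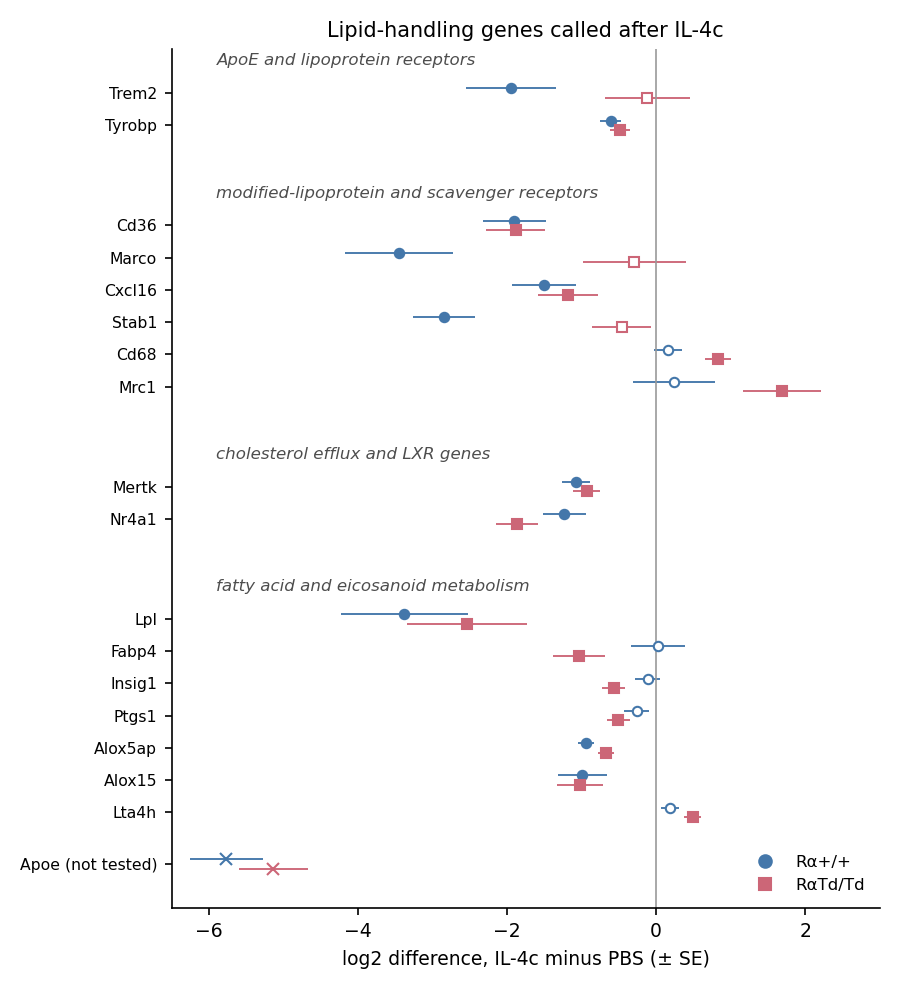
Log2 difference between IL-4c and PBS (horizontal, ± SE) for the 17 lipid-handling genes called after IL-4c in at least 1 genotype, by list, in Rα+/+ mice (blue circles) and RαTd/Td mice (red squares), filled where called at an adjusted p of 0.05 or less and open where not, with Apoe as crosses at the bottom, not tested. Apoe lies at -5.77 and -5.14, to the left of all 17 genes, of which Marco (-3.45) and Lpl (-3.38) in Rα+/+ mice come nearest.

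A further list held genes that macrophages of other tissues are known to express together with Apoe and Trem2. Of its 25 genes 13 are on the panel and 11 were tested, of which 0 rose and 6 fell in Rα+/+ mice (13.9% and 32.4% of all genes tested), and 4 rose and 5 fell in RαTd/Td mice (15.3% and 36.6%). Those that fell included Clec7a (-3.28 and -2.86), the monocyte chemokine Ccl2 (-2.70 and -2.12) and the Toll-like receptor Tlr2, which in Rα+/+ mice reached the floor after IL-4c (lower by at least 3.62-fold) and in RαTd/Td mice differed by -1.91. Those that rose in RαTd/Td mice were Cd68, the chemokine Ccl6 (1.33) and the lysosomal proteases Ctsd (0.44) and Ctsl (1.59), of which Ccl6 was not called without mouse 3 (1.31) or 4 (1.35), and Ctsd not without mouse 1, 2, 3, 4, 6 or 11 (0.40 to 0.47).

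The M2 genes were counted in the same lanes. Of 24 M2 genes 20 are on the panel and 16 were tested, of which 8 rose and 4 fell in Rα+/+ mice, beside 13.9% and 32.4% of all genes, and 7 rose and 3 fell in RαTd/Td mice, beside 15.3% and 36.6%. Chil3, a chitinase-like protein, did not leave the floor in the 4 mice given PBS and reached 43527 to 91581 normalized counts after IL-4c, higher by at least 1902-fold in Rα+/+ and 1084-fold in RαTd/Td mice. Arg1, the arginase gene, measured 1532 and 5062 in mice 1 and 2, 510 and 753 in mice 3 and 4, and 23131 to 35072 after IL-4c. Mouse 2, the PBS-treated mouse with the least Apoe, had the most Arg1 of the 4. The receptor and transcription factor genes of the pathway, Il4ra (-0.89 and -0.87) and Stat6 (-0.59 and -0.43), fell after IL-4c. The Il4ra calls were lost without mouse 1 (-0.85) or 2 (-0.92) in Rα+/+ mice and without mouse 4 (-0.68) in RαTd/Td mice, and the Stat6 call without mouse 3 (-0.44) or 4 (-0.41) in RαTd/Td mice. After centring on the median gene Stat6 differed by -0.29 and -0.17 and was called in neither.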

How the data were processed

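Lysates of sorted macrophages were counted by the authors on the Nanostring Myeloid Innate Immunity v2 panel. The deposited gene values are a linear signal: counts scaled by the authors to Eef1g, Rpl19, Gusb and Oaz1 as housekeeping genes, with anything low raised to a floor of 30, and the 14 control probes are whole counts without that scaling. Between the floor and 1000, all values were whole counts times 1 factor per mouse, within 0.1 counts. The summed counts per mouse were 268858 to 574505, and 355 to 391 genes were above the floor.

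The 445 genes with a mean above 30 were fitted as log2(value + 1) in R 4.3.3 by limma 3.58.1, giving each of the 4 groups its own mean. Benjamini-Hochberg adjustment ran over all genes within each of 5 comparisons, with calls at 0.05 or less. Single values were tested by exact permutation in Python 3.11.15 with scipy 1.17.1. A fold against a group at the floor is a lower limit, set at the lowest values its mice could show. Named genes were Apoe, list members called at least once, the 6 nearest profiles, rank neighbours, the largest drops and the checks. Nr1h3 and Lipa were named after their values were seen. Nothing says whether mice of a group shared a litter or cage, and p-values measure the spread between these mice. The fits were tested on simulated data. Alternatives were other scalings, filters and added constants, and each mouse left out. Apoe and the gene lists were chosen with earlier results of these data known. Sequences are from RefSeq tables of GRCm38.p6. Some genes of the lists are not reported here by name. The version of the authors' normalization software is not given in the sources used here.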

Additional observations from a re-analysis of the deposited data

Results flagged for a closer look

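Among the 4 IL-4c-treated RαTd/Td mice, 1 mouse stood apart from the other 3 in 8 of 70 gene and group combinations. No chance rate is set beside this count, since all the combinations share the same 4 mice. The values are the gap to the nearest mouse divided by the range of the group. They were 0.946 for Trem2, 0.851 for Lta4h, 0.927 for Ccl6, 0.890 for Ccl2, 0.873 for Ccl24 and 0.927 for C4a. For Olr1 and Lgals3 they were 1. Each of these was above the floor in 1 of the 4 mice, which fixes the value at 1. Mouse 12 was the mouse apart for Trem2 (342 normalized counts), Ccl6 (6261 normalized counts), Ccl2 (112), Ccl24 (3689) and C4a (3156, the low one) and for Lgals3 (42.5), and mouse 11 was the low one for Lta4h (229). Apoe was not among them, since mice 11 and 12 were both high. Retnla was flagged for a response to IL-4c that differed between the genotypes by -5.03 on the log2 scale. It is deleted in RαTd/Td mice, which were at the floor after both treatments. A difference was thus fixed by the design, and its size depends on the floor.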

How the results depend on the processing

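Apoe kept its direction after IL-4c under every setting run, between -6.27 and -4.49 in Rα+/+ mice and between -5.45 and -3.63 in RαTd/Td mice on the log2 scale, the smallest with scaling to positive control probes, and between -6.17 and -5.37 and between -5.43 and -4.83 with each mouse left out in turn. No setting called Apoe between the genotypes by adjusted p. The difference after PBS was -0.23 with positive control probes, 0.00 with quantile normalization, and 0.04 to 0.84 with each mouse left out. After IL-4c it was 0.64 to 1.17 over the settings and 0.78 to 1.38 with each mouse left out, and the difference in response was 0.42 to 0.90 and 0.23 to 1.03. The methods' t-test gave an unadjusted p of 0.0946 after IL-4c and 0.389 after PBS. Over both treatments the difference was 0.55 to 0.95 with each mouse left out (exact permutation p = 0.0167 to 0.0952), 0.87 with Eef1g alone (p = 0.0286) and 0.81 with Gusb alone (p = 0.0238), the last pair past the threshold. The mean share of Apoe was 7.48% in PBS-treated RαTd/Td mice over all gene rows, instead of 7.66%, and 0.160% in IL-4c-treated Rα+/+ mice without Retnla, Chil3 and Chil4, instead of 0.0872%. The number of lipid-handling genes called after IL-4c was 6 to 12 in Rα+/+ mice and 6 to 14 in RαTd/Td mice with each mouse left out, and 9 in RαTd/Td mice without the filter. Between the genotypes it was 0 to 3 after PBS, 0 to 4 after IL-4c and 0 to 1 for the response with each mouse left out. Centring on the median gene gave 1, 0 and 1, quantile normalization 0 after IL-4c and 1 for the response, and no filter or a single floor of 56.3 for all mice, chosen after seeing the data, 0 after IL-4c. Of 1169 alternatives for 69 called results of named genes, 121 lost the call and 0 reversed, and the cause was not tested. That count leaves out scaling to positive control probes, summed counts or single housekeeping genes, which is reported for Apoe only. The alternative by edgeR was not run, because the table holds normalized values. No paired analysis was possible because each mouse number occurs once.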
